A study of Mus musculus with 2 samples.

Results

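The proteasome genes of Th17 cells were followed here in 2 sequencing libraries, a control library and a library of cells transduced with RV-Cre, a retrovirus that carries Cre recombinase. The genes were found by their symbols, which begin with Psma, Psmb, Psmc, Psmd, Psme, Psmf or Psmg followed by a digit, and this gave 50 of the 23282 gene rows. No row of this kind carried the ending -ps of a pseudogene. Of the 50, 41 encode constitutive subunits, regulators or assembly factors, 5 encode the inducible subunits (*Psmb8*, *Psmb9*, *Psmb10*, *Psme1* and *Psme2*), and 2 encode subunits restricted to other tissues (*Psma8* and *Psmb11*). The symbol rule also took in 2 genes of another kind. *Psmc3ip* encodes a partner of meiotic recombinases and no part of the proteasome, and *Psme2b* is a retrocopy of *Psme2*.

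In both groups the starting cells were naïve CD4 T cells from spleens of *Fak* fl/fl mice, which were female. They were activated with anti-CD3ε (10 μg/ml) and anti-CD28 (5 μg/ml), then received either an empty retrovirus (control) or RV-Cre, and were kept for 3 days with IL-6 (50 ng/ml), TGFβ1 (1 ng/ml), TNFα (1 ng/ml), IL-1β (2 ng/ml) and antibodies against IFNγ and IL-4 (5 μg/ml each). GFP, which marks transduced cells, was used for sorting. The floxed alleles were thus present in both groups and Cre in only the RV-Cre group, so that the presence of Cre and the loss of *Fak* cannot be told apart here. The genotype field of the control reads WT while its title names floxed cells with the control retrovirus, and the title was followed.

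The proteasome is the protease of the cytosol and nucleus that destroys proteins tagged with ubiquitin. Its 20S core is a barrel of α and β rings, with the peptide-cutting sites on the β subunits encoded by *Psmb5*, *Psmb6* and *Psmb7*. The 19S cap recognises ubiquitin, unfolds the substrate with a ring of ATPases (the Psmc genes) and removes the ubiquitin chain. In lymphocytes, and more so after interferon-γ, the inducible subunits encoded by *Psmb8*, *Psmb9* and *Psmb10* take the places of those of *Psmb5*, *Psmb6* and *Psmb7* in new particles, forming the immunoproteasome, and the PA28 activator encoded by *Psme1* and *Psme2* can bind the core instead of a cap. Activated T cells, which make and destroy much protein, use the proteasome heavily, and the NF-κB pathway depends on it to degrade IκB.

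Promoters were taken from RefSeq on GRCm38.p6, where 40 of the 48 proteasome genes had an entry of 300 bases, running from 250 bases before the transcript start to 50 bases after it. The genes *Psmb1*, *Psmb2*, *Psmb7*, *Psmc3*, *Psmd3*, *Psmd7*, *Psmg2* and *Psma8* had none. The promoters shown are those of genes at the ends of the range described below, the lowest α subunit (*Psma5*), the lowest and the highest subunit of the 19S cap outside the ATPase ring (*Psmd14* and *Psmd4*), and the neighbouring inducible genes *Psmb9* and *Psmb8*, whose ratios lay apart. Capitals mark a match on either strand to TGANNNNGC (the core of the antioxidant response element, which NRF1 and NRF2 bind with small MAF proteins), CCAAT (the NF-Y box), CCGGAAG (an ETS site), GAAANNGAA (an IRF element) or GGNNTTNCC (an NF-κB site), and neighbouring matches can share bases.
Psma5, chr3:108256676-108256975, plus strand: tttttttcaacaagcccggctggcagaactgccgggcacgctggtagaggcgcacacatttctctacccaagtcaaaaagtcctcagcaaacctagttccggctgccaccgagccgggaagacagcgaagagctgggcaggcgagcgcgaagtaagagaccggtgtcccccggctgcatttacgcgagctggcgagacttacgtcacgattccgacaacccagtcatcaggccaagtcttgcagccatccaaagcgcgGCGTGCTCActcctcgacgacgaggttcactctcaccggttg
Psmd14, chr2:61711444-61711743, plus strand: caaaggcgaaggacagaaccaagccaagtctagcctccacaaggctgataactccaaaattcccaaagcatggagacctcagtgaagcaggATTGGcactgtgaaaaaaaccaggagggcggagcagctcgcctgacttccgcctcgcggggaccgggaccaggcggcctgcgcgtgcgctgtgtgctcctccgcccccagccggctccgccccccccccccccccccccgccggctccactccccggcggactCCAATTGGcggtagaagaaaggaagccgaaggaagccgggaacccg
Psmd4, chr3:95042565-95042864, minus strand: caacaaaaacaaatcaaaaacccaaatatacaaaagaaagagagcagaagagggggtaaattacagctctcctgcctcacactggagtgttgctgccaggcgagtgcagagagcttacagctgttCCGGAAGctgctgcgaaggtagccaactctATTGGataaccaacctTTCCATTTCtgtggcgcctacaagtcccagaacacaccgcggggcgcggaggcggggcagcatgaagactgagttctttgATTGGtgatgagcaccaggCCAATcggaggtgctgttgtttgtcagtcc
Psmb9, chr17:34187281-34187580, minus strand: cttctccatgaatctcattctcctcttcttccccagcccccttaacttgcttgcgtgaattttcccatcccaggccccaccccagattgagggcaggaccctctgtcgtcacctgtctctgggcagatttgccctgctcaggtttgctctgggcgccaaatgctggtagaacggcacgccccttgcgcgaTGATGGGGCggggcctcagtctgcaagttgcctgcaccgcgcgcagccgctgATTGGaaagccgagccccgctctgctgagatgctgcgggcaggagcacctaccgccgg
Psmb8, chr17:34197945-34198244, plus strand: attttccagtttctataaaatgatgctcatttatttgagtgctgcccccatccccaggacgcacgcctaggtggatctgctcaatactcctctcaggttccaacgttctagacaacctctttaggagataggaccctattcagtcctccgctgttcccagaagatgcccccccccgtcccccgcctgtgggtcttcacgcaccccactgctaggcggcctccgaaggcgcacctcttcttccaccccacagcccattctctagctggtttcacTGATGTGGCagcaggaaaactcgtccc

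The *Psma5* promoter held 1 match, to the antioxidant response element core. That of *Psmd14* held 3 CCAAT matches, of which the last 2 share bases, and that of *Psmd4* held 3 CCAAT matches, 1 ETS match and 1 IRF match. The *Psmb9* promoter held 1 antioxidant element core and 1 CCAAT match, and that of *Psmb8* 1 antioxidant element core. Where a gene had several entries (*Psma6*, *Psmc2* and *Psme2*), the first listed was searched, for all genes alike. Over the 40 proteasome promoters, the antioxidant element core was found in 22 (55.0%), against 41.4% of the promoters of all 27025 genes with an entry and 43.3% of those of the 9156 genes with enough reads. The ETS site was in 13 proteasome promoters (32.5%) against 9.12% and 19.1%, the IRF element in 6 (15%) against 8.57% and 7.11%, CCAAT in 14 (35.0%) against 37.9% and 39.4%, and the NF-κB site in 4 (10.0%) against 15.8% and 17.3%. A match says only that these letters stand in the window.

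Pairs of read counts are given with the control library first and the RV-Cre library second. The libraries were of the 3′ type, in which reads start near the end of a transcript, so that the counts do not grow with transcript length. They held 13799264 reads (control) and 12305010 reads (RV-Cre), of which the ribosomal RNA gene *Rn45s* took 8.50% and 14.6%. Counts were scaled with TMM factors, and a log2 ratio is the RV-Cre value minus the control value on the scale of log2(normalized reads + 1). A gene was followed where either library reached a log2 value of 4, and a gene was called lower or higher at a ratio of at least 2-fold. There was 1 library per condition, hence no replicate error, no test and no p-value. The intervals given are exact Clopper-Pearson 95% intervals on the reads, which reflect the number of reads alone and speak of these libraries rather than of the treatments. *Ptk2*, the gene of FAK, had 110 and 31 reads, a ratio of 0.318 (0.206 to 0.477). Whether these 3′ reads lie in the deleted part is not known from the sources used here, so that they do not check the deletion directly.

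T cell markers were plainly present in both libraries. *Cd4* had 1489 and 1342 reads and *Lck* 4959 and 4839. The 8 T cell markers summed to 1698 and 2213 CPM (counts scaled to the library total), from *Cd5* with the lowest ratio (3800 and 1696 reads) to *Cd3d* with the highest (3662 and 7475). The 8 B cell markers summed to 5.80 and 20.7 CPM, with *Pax5* at 0 in both libraries and *Blk* at 0 in the RV-Cre library, and ran from *Cd79b* (18 and 11 reads) to *Fcer2a* (1 and 37). The 12 myeloid markers summed to 93.8 and 115 CPM, with *Adgre1* at 0 in the control library, and ran from *Lyz2* (22 and 7 reads) to *Marco* (5 and 289). Of their 1295 and 1416 reads *Cst3* alone held 945 and 567, so that the sums hide a larger difference in the other myeloid markers. The 8 CD8 and NK cell markers summed to 89.1 and 125 CPM, with *Gzmk* at 0 in both libraries, *Ncr1* in the control and *Klrb1c* in the RV-Cre library, and ran from *Klrk1* (41 and 9 reads) to *Cd8b1* (122 and 274). Of the 8, 10, 6 and 5 markers of T cells, myeloid cells, B cells, and CD8 and NK cells with enough reads, 7, 7, 5 and 3 had a log2 ratio above 0. Over all genes followed it was 6012 of 12112. Beside these, the 46 constitutive and inducible proteasome genes summed to 11073 and 9062 CPM. The part of other cell types in the values below was not tested.

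Constitutive proteasome transcripts were, by their median, less abundant in RV-Cre-transduced than in control Th17 cells with every scaling except that to *Gapdh*, which turned the direction, and they were so unevenly. The 41 constitutive genes summed to 143049 and 103156 reads, a ratio of 0.814 (0.807 to 0.820). Their median log2 ratio was -0.31, against -0.01 over all 12112 genes followed and -0.07 over the 6276 of these with a mean log2 value of at least 8, a level that each of the 46 genes reached. The interquartile range of their log2 ratios was 0.79, against 1.07 over all genes and 0.78 over the more abundant. Their standard deviation was 0.46, against 1.22 and 0.65, so that the unevenness was not particular to the proteasome genes. Scaling to *Gapdh*, which itself had 956 and 634 reads, put the constitutive median at 0.11 and the median of all genes at 0.43. Relative to the median of all genes it was between -0.23 (quantile normalization) and -0.34 (no expression minimum) in every setting. In these bulk libraries, less RNA per cell and fewer cells of a type cannot be told apart.

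Large differences were few among the constitutive genes, and with TMM scaling moderate ones lay in 1 direction. At least 2-fold lower were 3 of 41 (7.32%), namely *Psma5*, *Psmb7* and *Psmd14*, against 12.3% of all genes followed and 7.60% of those with a mean log2 value of at least 8, so that this share was no larger than the background. At least 2-fold higher were 0 of 41, against 14.2% and 3.74%. At least 1.5-fold lower were 14 of 41 (34.1%), against 22.9% of all genes and 19.0% of the more abundant, and at least 1.5-fold higher were 0, against 23.5% and 12.1%. The counting interval of the ratio lay wholly below 1 for 29 of the 41 (70.7%), against 38.1% of all genes and 45.6% of the more abundant. It lay wholly above 1 for 8 (19.5%), against 36.7% and 35.6%. With scaling to *Gapdh*, 3 constitutive genes reached 1.5-fold on the lower side and 3 on the higher side, *Psma5* was still called while *Psmb7*, *Psmd14* and *Psmb9* were not, and over all genes 780 were called lower and 2960 higher in place of 1491 and 1720.

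**Figure D1:**
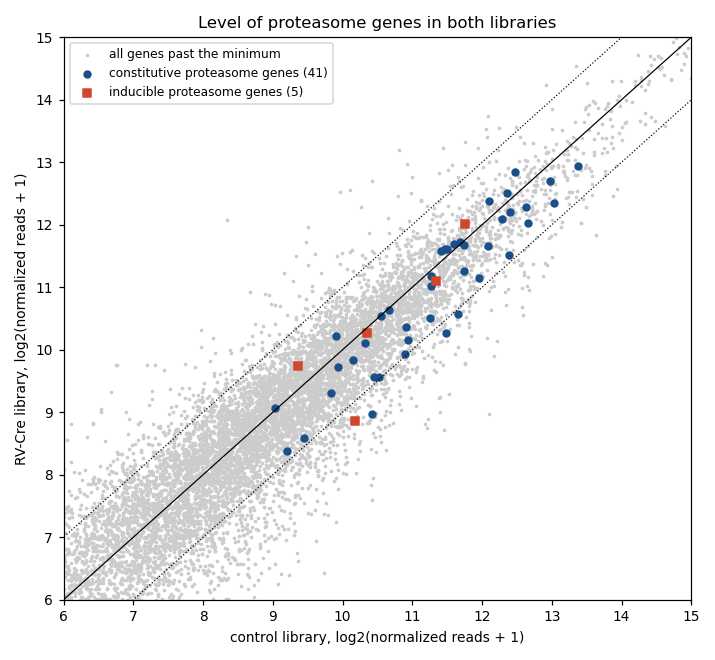
Level of each proteasome gene in the control (x axis) and RV-Cre (y axis) library, as log2(normalized reads + 1), 1 library each. Blue circles are the 41 constitutive and red squares the 5 inducible genes, grey points are all genes followed, both axes are drawn from 6 to 15, the solid line marks equal levels and the dotted lines a 2-fold difference. With this TMM scaling most blue points sit below the solid line (scaling to *Gapdh* would put their median at 0.11), and 4 coloured points, *Psma5*, *Psmb7*, *Psmd14* and *Psmb9*, sit below the lower dotted line.

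**Figure D2:**
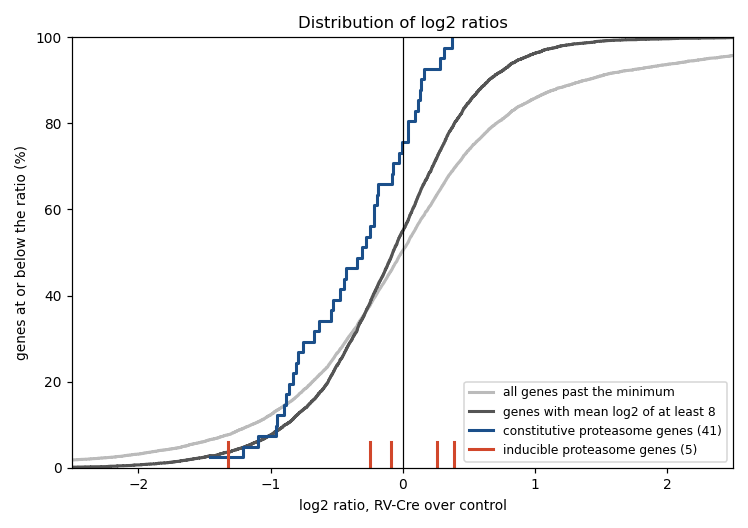
Cumulative share of genes (y axis, percent) at or below a given log2 ratio (x axis) for the 41 constitutive proteasome genes (blue), all 12112 genes followed (light grey) and the 6276 with a mean log2 value of at least 8 (dark grey). Red marks at the base give the 5 inducible genes. The blue curve lies to the left of both grey curves over most of its range, its median is -0.31 (0.11 with scaling to *Gapdh*), and it ends at 0.37.

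The α subunits form the outer rings of the 20S core and hold the gate through which substrates enter. The 7 constitutive α genes summed to 33466 and 22085 reads, a ratio of 0.745 (0.732 to 0.757), and their median log2 ratio was -0.44. *Psma5* had 1463 and 472 reads, a ratio of 0.364 (0.327 to 0.404), the lowest of the constitutive genes. *Psma1* had 2030 and 923 reads, a ratio of 0.513 (0.474 to 0.555), and *Psma2* 8861 and 4920, a ratio of 0.627. These 3 (42.9%, against 22.9% of all genes and 19.0% of the more abundant) were lower by 1.5-fold or more, whereas other subunits of the same ring were not. *Psma7* had 11330 and 7376 reads, the most of the 46 genes in both libraries, with a ratio of 0.735, and *Psma4* had 5302 and 4122, with a ratio of 0.877. *Psma3*, with 1588 and 1404 reads, had a ratio of 0.998 (0.928 to 1.07), and *Psma6*, with 2892 and 2868, had 1.12 (1.06 to 1.18). Each particle holds these subunits in equal number, but their transcripts did not move in step. The standard deviation of their log2 ratios was 0.57, against 0.65 over the more abundant genes. As a share of all reads on the 7 α genes, a measure that no scaling between libraries enters, *Psma5* was at 4.37% (4.16 to 4.60) in the control and 2.14% (1.95 to 2.34) in the RV-Cre library, while *Psma6* was at 8.64% (8.34 to 8.95) and 13.0% (12.5 to 13.4). *Psma7* held 33.9% and 33.4%, which counting error does not separate.

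The β subunits form the inner rings. The 7 constitutive β genes summed to 25823 and 20382 reads, a ratio of 0.891 (0.874 to 0.907), with a median log2 ratio of -0.08. Of the genes for the cutting subunits, only *Psmb7*, which encodes the trypsin-like site, was called, with 3428 and 1425 reads and a ratio of 0.469 (0.441 to 0.499). With quantile normalization its log2 ratio was -0.99, short of the 2-fold threshold. *Psmb5*, the gene of the chymotrypsin-like site and of the main target of bortezomib, had 3636 and 3066 reads, a ratio of 0.952 (0.907 to 0.999). *Psmb6*, the gene of the caspase-like site, had 3286 and 3104 reads, a ratio of 1.07 (1.01 to 1.12). Of the 3 cutting subunits, 1 was called lower and 2 were close to equal. Called lower were 12.3% of all genes followed and 7.60% of the more abundant. Among the β subunits that cut nothing, *Psmb2* had 1555 and 712 reads, a ratio of 0.517 (0.472 to 0.565), and stood apart from the rest. *Psmb4* had 5714 and 4424 reads with a ratio of 0.874, *Psmb3* 2607 and 2180 with a ratio of 0.944 (0.891 to 0.999), and *Psmb1* 5597 and 5471 with a ratio of 1.10 (1.06 to 1.15). The last 250 bases of the *Psmb7* transcript lie wholly within *Nek6* on the opposite strand, which had 1039 and 411 reads. Since use of strand in counting is not stated, reads of *Psmb7* and *Nek6* cannot be told apart.

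The ATPases of the 19S base form a ring that unfolds substrates, and their genes were the least shifted group of the constitutive proteasome by the median, which was 0.00 on the log2 scale. Their 17586 and 13946 summed reads gave a ratio of 0.895 (0.875 to 0.915). *Psmc2* had 4221 and 2137 reads, a ratio of 0.571 (0.542 to 0.602), and *Psmc6* had 2044 and 1242, a ratio of 0.686 (0.638 to 0.736). The other members were close to equal. *Psmc5* had 1724 and 1495 reads with a ratio of 0.979 (0.912 to 1.05), *Psmc3* 3508 and 3188 with 1.03 (0.977 to 1.08), *Psmc1* 3072 and 2955 with 1.09 (1.03 to 1.14), and *Psmc4* 3017 and 2929 with 1.10 (1.04 to 1.15). The reads of *Psmc2* per read of *Psmc4* in the RV-Cre library were 0.521 times (0.485 to 0.561) those in the control library, again a value free of scaling.

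The non-ATPase subunits hold the ubiquitin receptors, the scaffold and the deubiquitinase of the cap. The 11 genes summed to 52309 and 37813 reads, a ratio of 0.816 (0.805 to 0.827), with a median log2 ratio of -0.35. *Psmd14*, which encodes RPN11, the deubiquitinase that strips the chain from a substrate as it enters, had 3041 and 1164 reads and a ratio of 0.432 (0.403 to 0.462). *Psmd1*, the gene of the large scaffold RPN2, had 5710 and 2741 reads, a ratio of 0.542 (0.517 to 0.567). *Psmd12*, a lid subunit gene, had 2090 and 1070 reads, a ratio of 0.578 (0.536 to 0.622), and *Psmd8*, also of the lid, had 6873 and 3919 reads, a ratio of 0.643. With *Psmd14* these 3 were the members that were 1.5-fold lower or more (36.4%, against 22.9% of all genes and 19.0% of the more abundant). *Psmd2*, whose product RPN1 is the other scaffold, had 4630 and 3041 reads and a ratio of 0.741. The lid genes *Psmd3* (6746 and 4698 reads), *Psmd7* (8585 and 6286), *Psmd11* (2623 and 1962) and *Psmd6* (1358 and 1033) had ratios from 0.786 to 0.858. In the other direction, *Psmd4*, the gene of the ubiquitin receptor RPN10, had 6007 and 6884 reads, a ratio of 1.29 (1.25 to 1.34), the highest of the constitutive genes. *Psmd13*, another lid gene, had 4646 and 5015 reads, a ratio of 1.22 (1.17 to 1.27). Both were above 1 beyond counting error and below 1.5-fold. The ratio of *Psmd14* to *Psmd4* reads in the RV-Cre library was 0.334 times (0.309 to 0.361) that in the control library.

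**Figure D3:**
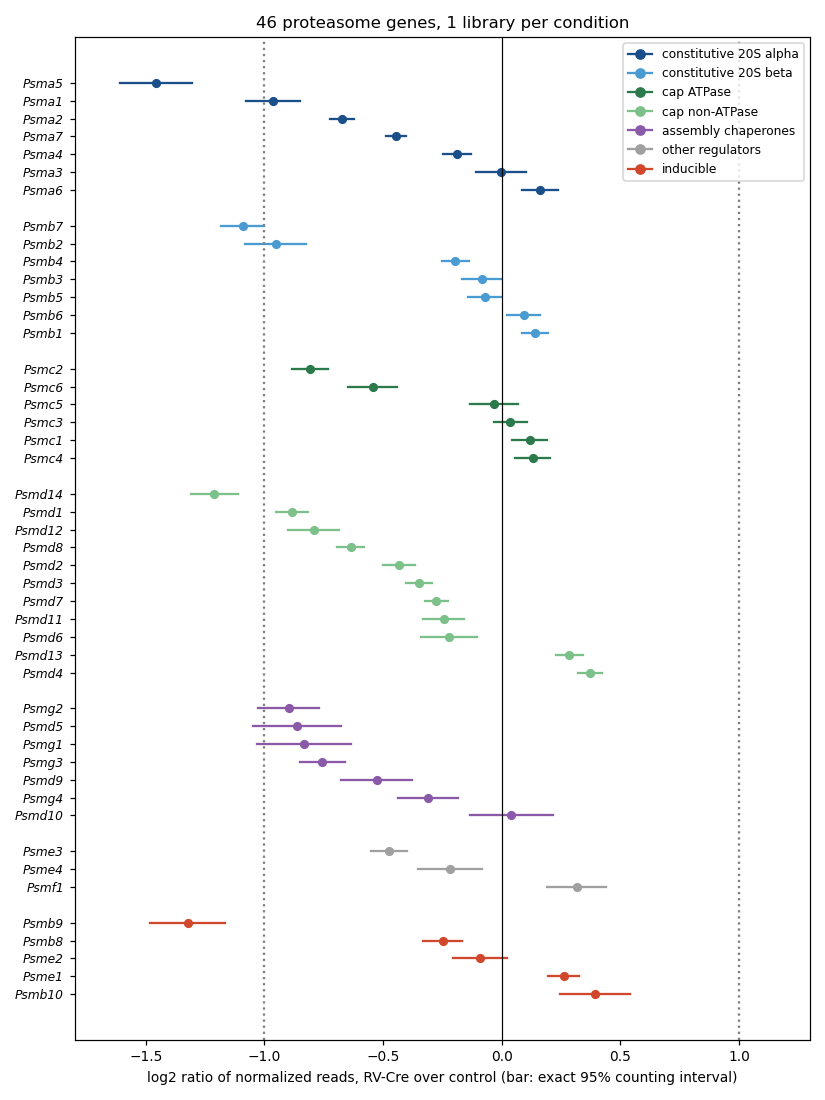
Log2 ratio of normalized reads, RV-Cre over control (x axis), for the 46 constitutive and inducible proteasome genes (rows), coloured by role. Points are the ratios of 1 library against 1 library, bars are exact 95% counting intervals, and dotted lines mark 2-fold. Within each role genes near 0 stand beside genes well below it, and the values run from -1.46 (*Psma5*) to 0.39 (*Psmb10*).

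The assembly factors were the lowest of the 7 groups, by the median and by summed reads. PSMG1 with PSMG2, and PSMG3 with PSMG4, are chaperone pairs that guide the α ring together, and PSMD5, PSMD9 and PSMD10 hold the ATPases before the cap closes, none of them staying in the finished particle. The 7 genes summed to 8191 and 4712 reads, a ratio of 0.649 (0.626 to 0.673), with a median log2 ratio of -0.76, and 4 of them (57.1%) were at least 1.5-fold lower, against 22.9% of all genes and 19.0% of the more abundant. *Psmg1* had 627 and 312 reads, a ratio of 0.562 (0.489 to 0.644), and its partner *Psmg2* had 1491 and 709, a ratio of 0.537 (0.490 to 0.587). These partners lay close together, with overlapping intervals. *Psmg3* had 2599 and 1364 reads, a ratio of 0.592 (0.554 to 0.633), and *Psmg4* had 1205 and 861, a ratio of 0.806 (0.738 to 0.881). The intervals of *Psmg3* and its partner *Psmg4* did not overlap. Of the cap chaperones, *Psmd5* had 742 and 362 reads, a ratio of 0.551 (0.484 to 0.625), *Psmd9* had 971 and 597, a ratio of 0.694 (0.626 to 0.769), and *Psmd10*, which encodes gankyrin, had 556 and 507, a ratio of 1.03 (0.911 to 1.16). The intervals of 6 of the 7 genes (85.7%) lay below 1, against 38.1% and 45.6%.

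The remaining regulators differed among themselves. *Psme3*, the gene of the nuclear activator PA28γ, had 3617 and 2303 reads, a ratio of 0.719 (0.682 to 0.757). *Psme4*, the gene of PA200, which acts on histones, had 1039 and 792 reads, a ratio of 0.860 (0.783 to 0.944). *Psmf1*, which encodes PI31, an inhibitor of the 20S core in the test tube, had 1018 and 1123 reads, a ratio of 1.24 (1.14 to 1.36). None was 1.5-fold apart, against 22.9% of all genes on the lower and 23.5% on the higher side (19.0% and 12.1% of the more abundant).

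The inducible genes did not move together, though the standard deviation of their log2 ratios, 0.68, was near the 0.65 of the more abundant genes. The 9749 and 8358 summed reads of the 5 inducible genes gave a ratio of 0.967 (0.939 to 0.996). Their median log2 ratio of -0.09 was above 0 with quantile normalization (0.02) and with scaling to *Gapdh* (0.33). *Psmb9* (LMP2) had 1231 and 436 reads, a ratio of 0.400 (0.358 to 0.446), and was the only one of the 5 (20%) to be called. Lower calls were made for 12.3% of all genes followed and 7.60% of the more abundant. Called higher were 0 of the 5, against 14.2% and 3.74%. *Psmb8* (LMP7) had 2759 and 2057 reads, a ratio of 0.841 (0.794 to 0.891). *Psmb10* (MECL-1) had 694 and 807 reads, a ratio of 1.31 (1.18 to 1.45). The intervals of these 3 genes, which share interferon-γ as an inducer, did not overlap, but they reflect the number of reads alone. Over all genes followed such intervals lay wholly below 1 for 38.1% and wholly above 1 for 36.7%, so that separate intervals were common. *Psmb8* and *Psmb9* are neighbours in the MHC region of chromosome 17, at chr17:34198195-34201454 and chr17:34182030-34187330, while *Psmb10* lies on chromosome 8.

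Each inducible catalytic subunit replaces a given constitutive one, and the reads of the members of a pair can be compared within a library, without any scaling. *Psmb8* made up 43.1% (41.9 to 44.4) of the reads of *Psmb8* and *Psmb5* in the control library and 40.2% (38.8 to 41.5) in the RV-Cre library. *Psmb9* made up 27.3% (26.0 to 28.6) of the reads of *Psmb9* and *Psmb6* in the control and 12.3% (11.3 to 13.4) in the RV-Cre library. *Psmb10* made up 16.8% (15.7 to 18.0) of the reads of *Psmb10* and *Psmb7* in the control and 36.2% (34.2 to 38.2) in the RV-Cre library. The inducible share was thus lower in the first 2 pairs and higher in the third, where both the lower *Psmb7* and the higher *Psmb10* count enter. The ratio of inducible to constitutive reads in the RV-Cre library was 0.884 times (0.820 to 0.953) that in the control library for *Psmb8* over *Psmb5*, 0.375 times (0.332 to 0.423) for *Psmb9* over *Psmb6*, and 2.80 times (2.48 to 3.16) for *Psmb10* over *Psmb7*. Over all 6 genes the inducible share was 31.2% (30.4 to 31.9) in the control library and 30.3% (29.4 to 31.2) in the RV-Cre library, and the ratio of 0.960 (0.910 to 1.01) did not leave 1 beyond counting error. Without *Psmb10* and *Psmb7*, whose reads cannot be told from those of *Nek6*, the shares were 36.6% and 28.8%, and the ratio was 0.701 (0.659 to 0.745).

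**Figure D4:**
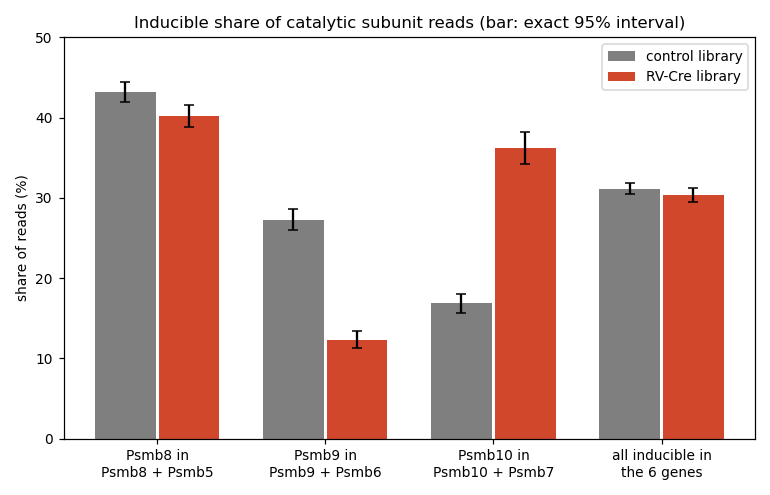
Share of reads (y axis, percent) that fell on the inducible gene of each pair of catalytic subunits and on the 3 inducible genes together, in the control (grey) and RV-Cre (red) library. Bars are values of 1 library and error bars exact 95% binomial intervals. The red bar is lower for *Psmb9* (12.3% against 27.3%), higher for *Psmb10* (36.2% against 16.8%), and close to the grey bar for the 6 genes together.

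PA28 is a ring of the products of *Psme1* and *Psme2*. *Psme1* had 3674 and 3901 reads, a ratio of 1.20 (1.15 to 1.25), and *Psme2* had 1391 and 1157 reads, a ratio of 0.939 (0.867 to 1.02). The last 250 bases of *Psme2* are 99.2% identical to *Psme2b*, which had more reads, 2615 and 1704, and a ratio of 0.735 (0.691 to 0.782). How the authors' counting divided reads between these copies is not known, so that the value of either is uncertain. As a sum, *Psme2* and *Psme2b* made up 52.2% (51.0 to 53.3) of the reads on the 3 genes in the control library and 42.3% (41.1 to 43.5) in the RV-Cre library. An exon of *Psme1* overlaps *Emc9* on the opposite strand, which had 1351 and 1753 reads.

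Further genes of the proteasome have other symbols. Of 8 such genes with reads, 7 had intervals below 1 (against 38.1% of all genes and 45.6% of the more abundant) and 1 had an interval above 1 (against 36.7% and 35.6%), and the median log2 ratio was -0.42. *Shfm1*, which encodes the small cap subunit SEM1, had 3972 and 1960 reads, a ratio of 0.557 (0.527 to 0.588), the lowest of them. *Pomp*, the gene of the maturation factor that brings the β subunits onto the α ring, had 15776 and 10173 reads, a ratio of 0.728 (0.710 to 0.746). *Adrm1*, the gene of the ubiquitin receptor RPN13, had 981 and 1088 reads, a ratio of 1.25 (1.15 to 1.37). The cap-bound deubiquitinases *Usp14* (1903 and 1297 reads) and *Uchl5* (2197 and 1604) had ratios of 0.769 and 0.824.

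Genes of ubiquitin, its activation and the factors that bring substrates to the proteasome had a median log2 ratio of -0.19 over 15 genes. Called were 0 of them in either direction, against 12.3% of all genes lower and 14.2% higher (7.60% and 3.74% of the more abundant). *Rps27a*, which encodes ubiquitin fused to a ribosomal protein, had 34772 and 19573 reads, a ratio of 0.635 (0.624 to 0.646). *Ubb* is listed at 0 in both libraries. *Ubqln2*, a shuttle gene, had 328 and 169 reads and the lowest ratio, 0.581 (0.480 to 0.702), and *Vcp*, the gene of the p97 unfoldase, had 8106 and 5655 reads, a ratio of 0.787. The E1 gene *Uba1*, with 21210 and 19935 reads, had a ratio of 1.06.

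NRF1, encoded by *Nfe2l1*, is the factor known to raise proteasome genes when proteasome activity is short, after it is cut by DDI2. *Nfe2l1* had 764 and 421 reads, a ratio of 0.622 (0.551 to 0.701), while *Nfe2l2*, the gene of the related NRF2, had 635 and 879 reads, a ratio of 1.56 (1.41 to 1.73). The genes of their small MAF partners were split, with *Maff* at 404 and 200 reads (ratio 0.559, the lowest of the 8 regulators), *Mafg* at 1254 and 719 (0.647) and *Mafk* at 620 and 671 (1.22). *Ddi2* had 631 and 704 reads, a ratio of 1.26. *Bach1* (103 and 133 reads) and *Ngly1* (145 and 150) had ratios of 1.46 and 1.17. The median log2 ratio of the 8 regulators was 0.25, with 5 above 0 and 3 below. None of the 8 was called, against 12.3% of all genes lower and 14.2% higher (7.60% and 3.74% of the more abundant).

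The list of antigen processing and interferon genes had a median log2 ratio of -0.08. *Tap2*, which encodes a chain of the peptide transporter, had 828 and 262 reads, a ratio of 0.357 (0.310 to 0.411), whereas *Tap1*, which encodes the other chain, had 2482 and 2075 reads, a ratio of 0.943 (0.890 to 1.00). *Tap1* starts head to head with *Psmb9*, an exon of which it overlaps on the opposite strand, and the ratios of the neighbours were 0.943 and 0.400. *Tapbp*, the gene of tapasin, had 2762 and 4257 reads, a ratio of 1.74 (1.66 to 1.83), the highest of the 9 genes, of which 2 were called lower (*Tap2* and *Ifng*) and 0 higher, against 12.3% and 14.2% of all genes. *Ifng* had 126 and 41 reads, a ratio of 0.367 (0.252 to 0.526), in cultures that contained an antibody against its product. *Irf1*, a factor that drives *Psmb9*, had 4347 and 2532 reads, a ratio of 0.657 (0.626 to 0.690).

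The tissue-restricted subunits were at or near the floor. *Psmb11*, the catalytic subunit of the thymus cortex, had 2 and 6 reads, and *Psma8*, the α subunit of the testis, had 0 reads in both libraries, where a count of 0 allows up to 3 reads. Of the genes taken in by symbol alone, *Psmc3ip* had 538 and 158 reads, a ratio of 0.331 (0.276 to 0.396), lower than any proteasome gene. The end of its transcript lies within *Mlx* on the opposite strand, which had 801 and 376 reads.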

How the data were processed

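A control library and an RV-Cre library of Th17 cells were compared, both made with the QuantSeq 3′ kit (500 ng total RNA). The authors deposited raw counts per gene symbol, with no normalization. The submitters' processing notes name bcl2fastq 2.20.0.422, Bowtie2, bedtools and the build mm10. Read filters, the annotation and the use of strand are not given in the sources used here. There were 79 rows that share a symbol with another row.

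TMM size factors (1.06 and 0.941, from edgeR 4.0.16, R 4.3.3) were computed over all rows, and log2(normalized count + 1) was compared, with a minimum of 15 normalized reads in either library. With 1 library per condition no test was run. Intervals of ratios and shares are exact Clopper-Pearson 95% intervals and those of ratios of ratios exact conditional 95% intervals (scipy 1.17.1). As no molecular identifiers were used, intervals, and the 3 reads that a count of 0 allows, reflect counting error alone. The steps were run on simulated counts that held counting error alone and differences larger than the 2-fold threshold. That run says nothing of smaller differences or of variation between replicate libraries. The proteasome genes, the lists, the motifs and the rule for named genes were chosen with earlier results of these data known. That rule asks for full values of the catalytic subunits and their partners, the regulators, the PSMG chaperones, each called gene, and the lowest and highest gene of each subcomplex and list. Some genes that the rule asks for are not reported here. Other genes named were chosen after their values were seen. Copies (at least 95% identity over at least 100 of the last 250 transcript bases, blastn 2.17.0), overlaps and transcript features came from GENCODE M21, and promoters and spans from RefSeq, both on GRCm38, the assembly of mm10.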

Additional observations from a re-analysis of the deposited data

How the results depend on the processing

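No paired analysis was possible because only 1 library was made for either condition, and for the same reason no library could be left out. The alternatives were other scalings, pseudocounts of 0.1 and 10, other expression minimums, fold thresholds of 1.5 and 3, sums in place of medians, and, chosen after the data were seen, the background of more abundant genes, the pair of *Psmb10* and *Psmb7* alone, and leaving out the 11 genes with a copy or an overlapping gene listed in the tables. The cause of the shifts was not tested. The constitutive median of -0.31 was -0.22 with library totals without *Rn45s*, -0.21 with quantile normalization and 0.11 with scaling to *Gapdh*, and the inducible median of -0.09 was 0.024 with quantile normalization, 0.33 with scaling to *Gapdh* and 0.071 without the genes with a copy or overlap. The value of 0.071 rests on *Psmb8* and *Psmb10* alone, as *Psmb9*, *Psme1* and *Psme2* were left out. Of the 11 genes left out, *Psmc3ip*, *Psme2b* and *Psmb11* had entered neither median. The 3 constitutive genes at least 2-fold lower were 2 with quantile normalization (without *Psmb7*), 2 without the genes with a copy or overlap, 1 with scaling to *Gapdh*, 14 at a threshold of 1.5 and 0 at a threshold of 3. The 1 inducible gene called lower was 0 with scaling to *Gapdh* and at a threshold of 3. The ratio of inducible to constitutive catalytic reads, 0.960, was 0.701 without *Psmb10* and *Psmb7*, 0.884 for *Psmb8* and *Psmb5* alone, 0.375 for *Psmb9* and *Psmb6* alone and 2.80 for *Psmb10* and *Psmb7* alone. Of the 46 genes, 20 were below 0 and 12 above 0 under every scaling and pseudocount run, and 14 changed sign with a setting, 5 of them (*Psma3*, *Psmb3*, *Psmb5*, *Psmc5* and *Psme2*) also with a setting other than *Gapdh*. Without an expression minimum, 3265 genes of all were at least 2-fold higher and 2441 lower, 734 and 1067 with a log2 minimum of 6, 758 and 1097 with each library required to reach 4, and 2960 and 780 with scaling to *Gapdh*, against 1720 and 1491.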

Other observations

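Features of the transcripts were set beside the log2 ratios of the 46 constitutive and inducible genes, as a description across genes of the same libraries, which are not independent replicates. The Spearman correlation of the log2 ratio with GC content of the last 250 transcript bases was 0.34 over the 46 genes, 0.14 over 10810 of all genes followed and 0.22 over 5885 of those with a mean log2 value of at least 8. With genomic span it was -0.29 over the 46 genes, against 0.08 and 0.07, and with transcript length -0.02, against 0.08 and 0.09. *Psmd14* and *Psmb7*, both called lower, span 88683 and 55907 bases, while *Psmb10* and *Psmb6*, on the other side of 0, span 2665 and 2535. *Psmb1*, with a ratio above 1, spans 22556 bases and *Psma5*, the lowest, 23027, so that the genes did not follow span one by one. The part of these features in the ratios was not tested.

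Near-identical stretches of another annotated gene were found for 12 of the 50 rows, overlapping genes included. Those of *Psma5*, *Psmb3*, *Psmb5*, *Psmb6*, *Psmd2* and *Psme1* are mostly annotated pseudogenes and were not analysed here. The copy of *Psma5*, *Gm8394*, is 97.4% identical over 233 bases. How reads that match a gene and its copy equally well were placed is not given in the sources used here.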
